A study of Oryza sativa Japonica Group with 38 samples.

Results

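Nuclear total RNA was set against whole cell poly(A)+ RNA in rice (Oryza sativa, japonica), over every gene of the long noncoding RNA (lncRNA) tables that the authors deposited. The comparison used 14 columns of values, which the labels tie to 15 of the series' 38 samples, as 7 pairs from conditions whose columns agreed in both tables. It covered 7231 genes. Of these, 1873 carried RAP locus identifiers, 1849 EPlOSAG identifiers and 3509 XLOC identifiers. The identifiers had no match in the RefSeq table at hand, so the loci carry no gene names or known roles here.

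Plants had grown for 2 weeks on medium, with a day of 12 h at 28 °C and a night of 12 h at 22 °C. The whole seedlings were untreated, or had been kept at 4 °C (cold), at 50 °C (heat), under 50000 lux (high light), with NaCl at 300 mM (high salt) or air-dried (drought). Roots came from untreated seedlings. How long each treatment lasted was not stated. These 7 groups are called settings below. Each setting had 1 nuclear column and 1 poly(A)+ column. Drought had 2 poly(A)+ libraries by its labels but 1 column, and whether that column is a pool or a single library was not stated.

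LncRNAs are transcripts with little or no coding capacity. Many are made like messenger RNAs and receive a poly(A) tail, which usually goes with export to the cytoplasm, while others lack a tail or stay in the nucleus, often near their site of transcription. In plants some nuclear lncRNAs are known to act on chromatin, as COOLAIR does at the FLC locus of Arabidopsis during cold. The present comparison changes the compartment and the selection for a poly(A) tail together, so a nuclear location and the lack of a tail cannot be told apart from it. The tables list lncRNA genes alone, so the purity of the nuclear RNA was not checked against nuclear or cytoplasmic marker genes.

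Values are FPKM, a fragment count divided by exon length and by the library's depth. Reads recovered from the FPKM values gave a depth of 24.6 to 62.7 M reads (M, reads in units of 1e6) for the nuclear columns and 50.6 to 105 M for the poly(A)+ columns. The untreated nuclear column was read as 24.6 M, and every other nuclear column had at least 49.7 M. Its depth is uncertain by a factor of 2, since the largest step that gives whole counts was taken. At 49.2 M all its counts would be even, whereas at 24.6 M 1354 of 2387 single-exon values (56.7%) were odd, against 55.1% to 57.8% in the other 6 nuclear columns. Shares of reads do not depend on this choice. The labels do not say whether the libraries are from separate cultures. The p-values therefore describe the spread of these libraries alone, and it may be technical.

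Listed lncRNAs took a small share of the nuclear libraries, and few of them reached 1 FPKM there. Shares and FPKM are relative to each library, and nuclear total and poly(A)+ libraries can differ in RNA content. They therefore do not give amounts of RNA in the nucleus, here or below. The listed genes took 1.25% ± 0.375 of the reads of a nuclear library and 2.5% ± 0.183 of those of a poly(A)+ library (SD, n = 7 each). The nuclear share was the lower in 7 of 7 pairs (exact sign-flip permutation test, two-sided, p = 0.0156, the smallest that 7 pairs allow; Benjamini-Hochberg adjusted over 5 measures, 0.0260). At least 1 FPKM was reached by 197 to 382 genes in a nuclear library, with a median of 295, and by 1585 to 2873 genes in a poly(A)+ library, with a median of 2607. The ranges did not overlap (mean difference -2115 genes, adjusted exact p = 0.0260).

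The nuclear lncRNA reads were also concentrated on few loci. The 10 genes with most reads took 73.7% to 85.6% of the listed reads in a nuclear library and 10.9% to 58.3% in a poly(A)+ library, the nuclear share being the higher in 7 of 7 pairs (mean difference 57.8 percentage points, adjusted exact p = 0.0260). The share of listed reads on genes with 2 or more exons was 16% ± 6.56 in nuclear and 25.9% ± 7.01 in poly(A)+ RNA (SD, n = 7). This missed the threshold (adjusted exact p = 0.0586), and among XLOC loci alone the nuclear share was the higher, by 12.6 percentage points. The share on XLOC loci, 54.6% ± 6.30 in nuclear and 61.6% ± 9.48 in poly(A)+ RNA, also missed it (adjusted exact p = 0.297). Without high salt both shares passed it, at -12.5 and -12.1 percentage points (adjusted exact p = 0.0313). Each of these measures has a single value per library.

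Gene by gene, nuclear levels were far below poly(A)+ levels for most of the tested lncRNAs and above them for a few. Of the 7231 genes, 2786 reached 1 FPKM in at least 3 of the 14 columns and were tested with limma on log2(FPKM + 1), with the setting as a block. Genes were called at a Benjamini-Hochberg adjusted p of at most 0.05 and a difference of at least 2-fold. There were 35 genes called higher in nuclear RNA (1.26% of those tested) and 2206 called lower (79.2%). The median difference over all tested genes was -1.69 on the log2(FPKM + 1) scale, which understates the change of low genes.

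The filter shaped both counts. Without a filter 5630 genes were tested, and 29 were called higher and 2210 lower, with a median difference of -0.653. Of the 35 genes called higher, 10 reached 1 FPKM in 3 nuclear columns and not in 3 poly(A)+ columns. Passing this way favours a call without forcing it, and 38 tested genes did so. The other 25 passed by either kind of column. Of the 2206 genes called lower, 1996 reached 1 FPKM in 3 poly(A)+ columns and not in 3 nuclear columns, as 2440 tested genes did. The filter favoured their calls, so their number supports nothing. Among the 322 genes that reached 1 FPKM in at least 3 nuclear columns, 35 were called higher, 210 lower and 77 neither. Listed at 0 in all 7 nuclear columns were 13 of the tested genes. Among 675 genes with a mean of at least 5 FPKM over the 14 columns, a limit chosen after seeing the data, 23 were called higher and 633 lower.

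In genes of that level the nuclear signal was a small percentage of the poly(A)+ signal. The limit counts both kinds of column, so a gene low in nuclear RNA passed it only by a high poly(A)+ level. It thus favours small percentages and lower calls, and the values here are a description. Over the 674 of them that also passed the main filter, the mean nuclear FPKM had a median of 2.57% of the mean poly(A)+ FPKM (interquartile range 1.62% to 4.95%). It was under 5% in 508 genes and over 100% in 33. The median was 2.98% for 242 RAP genes, 2.30% for 418 XLOC loci and 148% for 14 EPlOSAG loci. The 14 include 6 loci of equal length (1811 nt), described below, whose nuclear means were 1.71 to 2.27 times their poly(A)+ means. Another 5 of the 14 were under 5%, so the 148% does not describe EPlOSAG loci in general. By exons it was 2.47% for 481 genes of 1 exon, 2.48% for 77 genes of 2 exons and 3.03% for 116 genes of 3 or more exons.

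**Figure D1:**
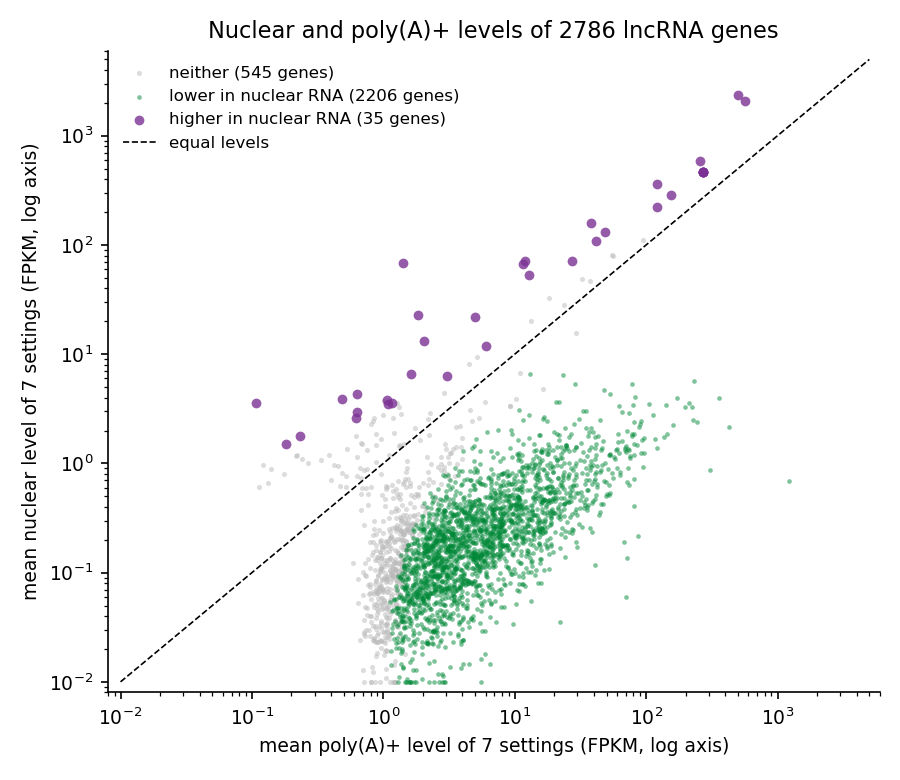
Mean nuclear level against mean poly(A)+ level of the 2786 tested genes, each the mean of 7 settings in FPKM on log axes, with means under 0.01 FPKM drawn at 0.01. The 35 genes called higher (purple) lie above the line of equal levels and reach 2358 FPKM in nuclear RNA, while the 2206 called lower (green) lie far below it.

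The plot of mean levels shows the genes called higher above the line of equal levels. Genes that were not called lie there too, such as XLOC_047886 with means of 78.5 FPKM in nuclear and 56.1 in poly(A)+ RNA. The genes called higher had a median nuclear FPKM of 66.8 and a median poly(A)+ FPKM of 11.5, against 0.202 and 3.63 over all tested genes. A mean of at least 100 FPKM in nuclear RNA was reached by 15 tested genes, and 14 of them were called higher. The range was wide, however, since 10 of the 35 had a nuclear mean under 5 FPKM and 13 had a poly(A)+ mean under 2 FPKM.

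These 35 genes held most of the nuclear reads on listed loci. Together they took 88.3% ± 4.00 of the listed reads of a nuclear library (SD, n = 7), with a lowest value of 79.6% in roots and a highest of 91.2% in drought. In poly(A)+ libraries they took from 3.73% in roots to 59.0% in high salt, with a median of 16.2%. With these genes set aside, the other listed genes took 0.0929% to 0.161% of the reads of a nuclear library and 0.879% to 2.45% of a poly(A)+ library, a ratio of 6.53 to 26.4. The genes were chosen by this contrast, so these shares are a description.

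Much of that share lay on 6 loci of 1811 nt, 5 of them evenly spaced on chromosome 9, which took 41.5% ± 6.46 of the listed nuclear reads (SD, n = 7). With these 6 set aside, the other 29 loci took 79.9% ± 6.13 of the remaining listed reads in nuclear RNA and 9.2% ± 8.23 in poly(A)+ RNA. The authors list the 6 loci as lncRNAs. Ribosomal RNA genes are known to lie in tandem copies at an end of rice chromosome 9, and ribosomal RNA was depleted from the libraries. Whether the 6 loci are copies of a ribosomal RNA gene was not tested, since no sequence of this build was used here.

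**Figure D2:**
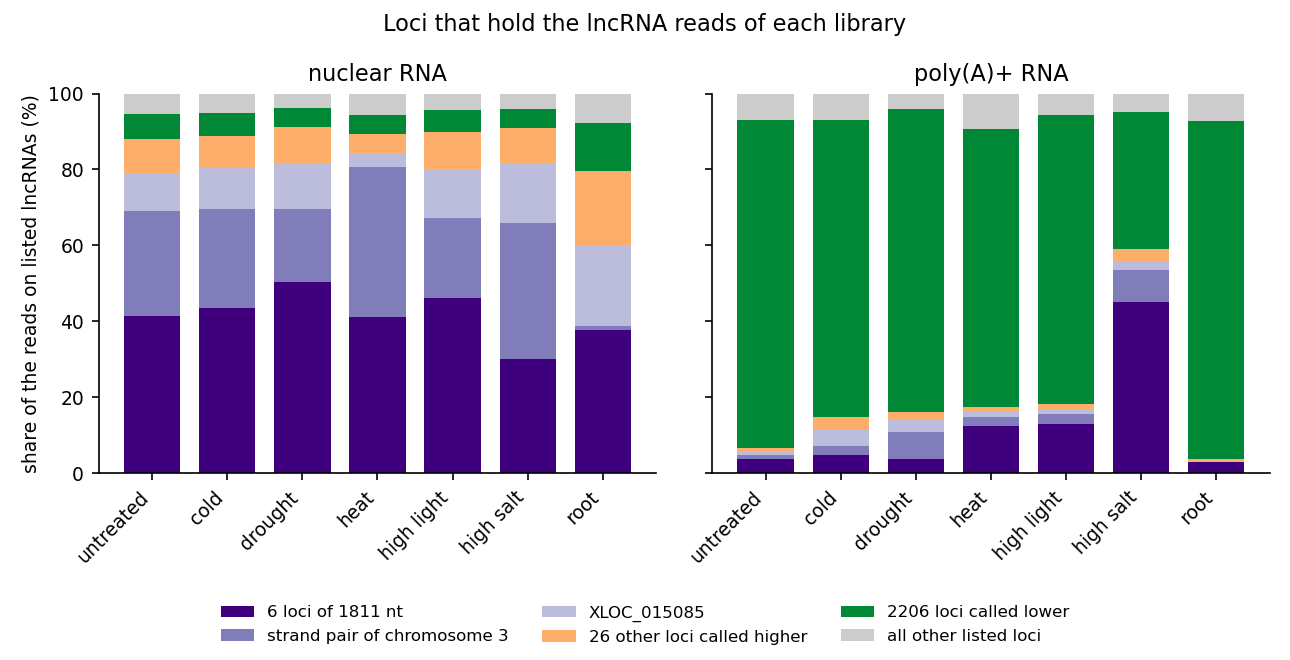
Share of the reads on listed lncRNAs (%) taken by groups of loci in each of the 7 nuclear and 7 poly(A)+ libraries, as stacked bars. In nuclear RNA the purple and orange groups, the 35 loci called higher, make up 79.6% to 91.2%, while in poly(A)+ RNA the green group of 2206 loci takes most reads except in high salt, where it takes 36.3%.

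By structure, 34 of the 35 genes called higher had a single exon (97.1%), against 75.6% of all tested genes. The exception was XLOC_015085, with 2 exons. A listed locus overlapped 12 of the 35 (34.3%) on the other strand, against 2.66% of all tested genes. Counted the other way, 12 of 74 overlapped genes were called higher and 32 lower (median difference -0.89), against 23 higher and 2174 lower of 2712 genes that were not overlapped (median -1.71).

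By identifier, 23 of 1816 tested XLOC loci were called higher (1.27%, against 1.26% of all tested genes) and 1404 lower (77.3%, against 79.2%), with a median difference of -1.61. The XLOC shares were thus near those of all tested genes. Of the EPlOSAG loci, 29 of the 1849 listed were tested, and 11 were called higher (37.9%) and 13 lower (44.8%; median -0.72). Of these 11, 6 are the loci of 1811 nt. RAP genes had 1 called higher (0.106%) and 789 lower (83.8%) of 941 tested (median -1.80). The single RAP gene was OS02G0618000, of 1 exon, and among 558 tested RAP genes with 2 or more exons 0 were called higher and 480 lower. By exons, 0 of 398 genes with 3 or more exons were called higher and 345 lower, and their median of -1.96 compares with -1.61 for 2106 genes of 1 exon.

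Shares also varied by length and by chromosome. Of 664 tested genes of at least 1000 nt, 9 were called higher (1.36%) and 491 lower (73.9%), and of 355 genes under 300 nt, 5 were called higher (1.41%) and 280 lower (78.9%). The share called lower ran from 72.9% on chromosome 9 to 89.3% on chromosome 8 over the 12 chromosomes. Called higher, against 1.26% of all tested genes, were 10 of 380 tested on chromosome 1 (2.63%), 6 of 181 on chromosome 9 (3.31%), 0 of 187 on chromosome 8 and 0 of 152 on chromosome 11. Of the 6 on chromosome 9, 5 are the evenly spaced copies of 1811 nt. No test of a list was made.

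The authors' own classes, deposited with each gene, may rest on these same columns and are no independent support. In their nucleus class 32 of 121 tested genes were called higher and 22 lower, and in their cytosol class 0 of 2501 were called higher and 2098 lower. Of 39 tested genes in their Poly(A)- class, 8 were called higher and 1 lower. In their Bimorphic poly(A) class 26 of 389 were called higher and 191 lower, and in their Poly(A)+ class 1 of 2358 was called higher and 2014 lower. No source used here states the rules behind the classes.

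Within single settings the 35 genes differed in how far they stood above poly(A)+ RNA. All 35 were above their poly(A)+ level in untreated, drought and high light plants, 33 in heat and in roots, 32 in cold and 18 in high salt. A difference of the same sign in all 7 settings was found for 13 of them, and high salt alone was the exception for another 15. Ranges of nuclear and poly(A)+ values over the 7 settings failed to overlap for 2 of the 35, XLOC_051819 and XLOC_073305, and for 1658 of the 2206 genes called lower. Over all 2786 tested genes, every nuclear value was above every poly(A)+ value in 0.144% and below it in 63% of genes. The filter, which most genes passed by their poly(A)+ columns alone, favoured the second kind.

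**Figure D3:**
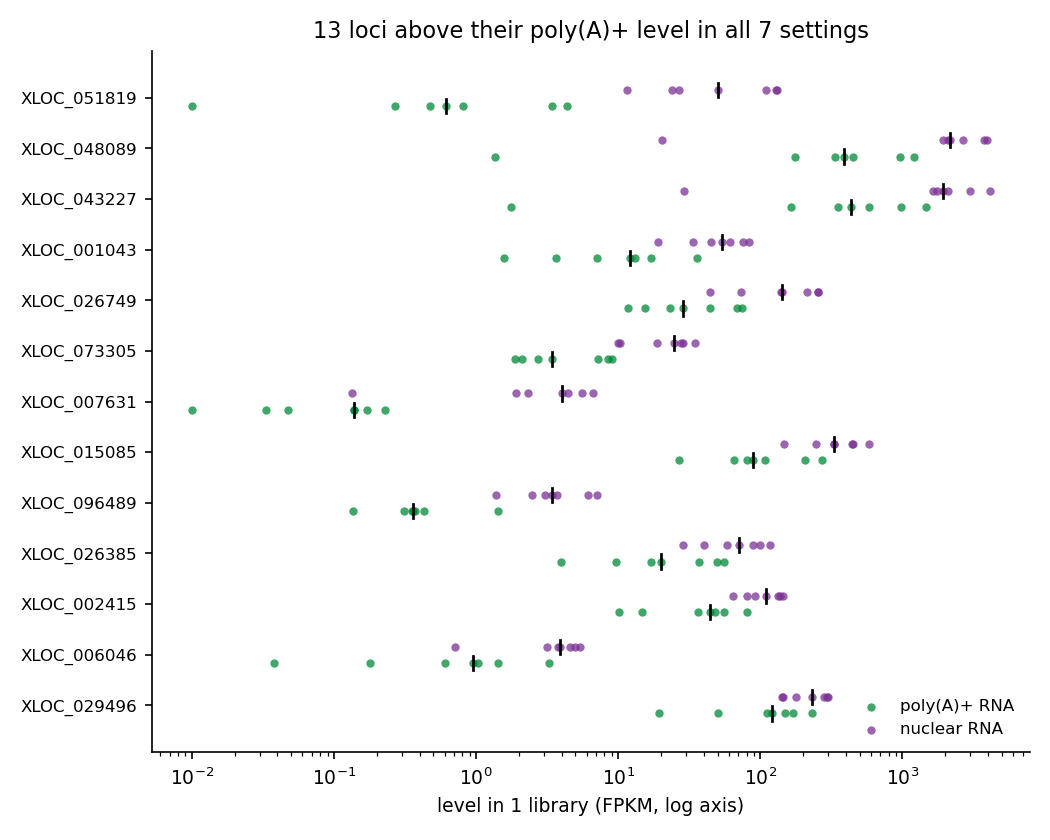
Level of the 13 loci whose nuclear value was above the poly(A)+ value in all 7 settings, as 1 point for each library in FPKM on a log axis, with the median of 7 as a black bar and values of 0 drawn at 0.01. The nuclear points (purple) of XLOC_051819 lie between 11.6 and 131, and its poly(A)+ points (green) reach 4.35.

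XLOC_051819 had the largest difference. This locus of 241 nt and 1 exon lies on the plus strand of chromosome 4, from 145577 to 145818. Its nuclear level was 11.6 FPKM at its lowest, in cold, 50.3 at the median and 131 at its highest, in untreated seedlings. Its poly(A)+ level was 0 in drought, 0.613 at the median and 4.35 at its highest, in high light. Every nuclear value was above every poly(A)+ value, and the difference was 4.66 ± 0.42 (SE, log2 scale, adjusted p = 1.12e-10). Its nuclear mean of 68.9 FPKM was 48.6 times its poly(A)+ mean, and its poly(A)- mean was 11.2 FPKM.

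By mean FPKM, the highest nuclear levels of single loci were those of a strand pair on chromosome 3. XLOC_043227 on the plus strand and XLOC_048089 on the minus strand share the interval from 11539610 to 11540373 and a length of 763 nt. XLOC_048089 ranged in nuclear RNA from 20.3 FPKM in roots to 3915 in high salt, with a median of 2160, and in poly(A)+ RNA from 1.36 in roots to 1214 in drought, with a median of 386. XLOC_043227 ranged from 29.1 FPKM in roots to 4121 in heat in nuclear RNA, with a median of 1924, and from 1.77 in roots to 1454 in high salt in poly(A)+ RNA, with a median of 432.

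Both were low in roots in either kind of RNA and were above poly(A)+ RNA in every setting. Roots are an organ and the other settings whole seedlings, and in such bulk samples fewer cells of a type and less RNA per cell cannot be told apart. Their differences were 2.56 ± 0.48 (adjusted p = 1.89e-05) for XLOC_048089 and 2.31 ± 0.49 (adjusted p = 9.02e-05) for XLOC_043227. Without the setting as a block these p-values were 0.0624 and 0.0805. The pair took 24.3% ± 12.7 of the listed nuclear reads (SD, n = 7), from 0.830% in roots to 39.3% in heat, and so fewer on average than the 6 loci of 1811 nt. In small RNA the strands parted, with means of 852 FPKM for XLOC_048089 and 0.522 for XLOC_043227. No source used here states how reads that match both strands or several places were counted. The values of a single strand are therefore uncertain for all such pairs.

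Other mirrored pairs behaved alike in being called on both strands. On chromosome 1, from 7228665 to 7229373, XLOC_001043 (nuclear mean 53.0, poly(A)+ mean 12.9 FPKM) had a difference of 2.26 ± 0.44 and XLOC_006698 (133 and 48.3 FPKM) one of 1.63 ± 0.43. On chromosome 12, from 13051238 to 13052038, XLOC_026385 (71.8 and 27.5 FPKM) had 1.62 ± 0.42 and XLOC_029496 (225 and 122 FPKM) had 1.14 ± 0.45. XLOC_029496 fell below the threshold without the untreated setting (0.97, adjusted p = 0.0673) and without roots (0.86, adjusted p = 0.0822). On chromosome 5, from 3893142 to 3893733, XLOC_060998 had 2.22 ± 0.42 and XLOC_064608 had 1.06 ± 0.27. The last of these was low in long RNA, with a nuclear mean of 1.52 FPKM, but had 1317 FPKM in small RNA.

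In 4 further pairs a single strand was called. XLOC_073305 on chromosome 6 had a nuclear range of 9.89 to 34.6 FPKM (median 24.8) and a poly(A)+ range of 1.87 to 9.02 (median 3.43), which did not overlap, and a difference of 2.00 ± 0.38 (adjusted p = 2.02e-05). XLOC_006046, XLOC_043005 and XLOC_078921 were the called strands of the others, with differences of 1.25, 1.08 and 1.53.

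XLOC_015085, listed with 2 exons, lies on the minus strand of chromosome 10 from 2755797 to 2759729. Its exon length of 3932 nt fills that whole span, so whether its reads come from spliced RNA cannot be told. Its nuclear level ranged from 147 FPKM in heat to 584 in high salt, with a median of 330, and its poly(A)+ level from 26.9 in roots to 271 in cold, with a median of 88.8. The ranges overlapped across settings, but the nuclear value was the higher in each of the 7, by 1.78 ± 0.46 (adjusted p = 0.000671). It took 12.4% ± 5.4 of the listed nuclear reads (SD, n = 7), with its highest share, 21.4%, in roots.

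Low loci were among the consistent ones as well. XLOC_007631 on chromosome 1 had a nuclear median of 4.00 FPKM and a poly(A)+ median of 0.137, and a nuclear mean 33.1 times the poly(A)+ mean (difference 1.83 ± 0.33, adjusted p = 1.21e-05). XLOC_096489 on chromosome 9 had medians of 3.42 and 0.359 FPKM (1.66 ± 0.34). Both calls depended on the pseudocount, since with 5 in place of 1 the differences were 0.70 and 0.67, under 2-fold. The same held for XLOC_006046 at 0.53. XLOC_026749 on chromosome 12 was far more abundant, with medians of 142 and 28.5 FPKM (2.10 ± 0.43), as was XLOC_002415 on chromosome 1, with 109 and 44.2 (1.59 ± 0.45).

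Among EPlOSAG loci the largest signal came from copies of equal length. EPlOSAG00000008517 to EPlOSAG00000008521 are 5 loci of 1811 nt whose starts lie 7928 nt apart on chromosome 9, between 3625 and 37148, and EPlOSAG00000008516 has the same length on chromosome 2 from 28719356 to 28721167. The nuclear level of EPlOSAG00000008520 ranged from 156 FPKM in roots to 663 in drought, with a median of 473, and its poly(A)+ level from 68.6 in roots to 892 in high salt, with a median of 106. The other 4 copies on chromosome 9 had nuclear means of 461 to 462 FPKM, against 463 for this locus, and their small RNA values were equal to its own, 1925 FPKM on average. Reads may be shared between these copies, so their separate values are uncertain.

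All 6 loci of that length were called higher, with differences of 1.25 to 1.76, and each was above poly(A)+ RNA in 6 of 7 settings. The exception was high salt, where EPlOSAG00000008516 had 470 FPKM in nuclear and 882 in poly(A)+ RNA. Together the 6 loci took 30.1% to 50.5% of the listed nuclear reads. In poly(A)+ RNA they took 2.95% to 45%, with a median of 4.81%, and the highest value was that of high salt.

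The other 23 tested EPlOSAG loci, of 200 to 743 nt, were called in both directions, 5 higher and 13 lower. EPlOSAG00000045065, of 240 nt on chromosome 1, ranged from 22.7 FPKM in high salt to 177 in roots in nuclear RNA, with a median of 54.1, and from 0.122 in cold to 69.7 in high salt in poly(A)+ RNA, with a median of 2.28. Its difference was 3.83 ± 0.57 (adjusted p = 7.61e-07), and high salt was the only setting in which the poly(A)+ value was the higher. Its nuclear level was highest in roots, where those of the loci of 1811 nt were lowest. EPlOSAG00000008529, with nuclear and poly(A)+ medians of 3.03 and 0.580 FPKM, had 1.3 ± 0.38 and was under 2-fold without heat (0.96) and with a pseudocount of 5 (0.58). The other 3 called higher, EPlOSAG00000046976, EPlOSAG00000046987 and EPlOSAG00000047009, are of equal length and had nuclear means of 2.59, 3.47 and 3.54 FPKM. The first and the last of these were above poly(A)+ RNA in 5 of 7 settings. EPlOSAG00000046987 and EPlOSAG00000047009 had equal small RNA values in every setting, and those of EPlOSAG00000046976 were close. Reads may be shared between the 3, so their separate values and their count as 3 loci are uncertain. XLOC_010040 (3.76 ± 0.62) and XLOC_014981 (2.94 ± 0.47) stood between EPlOSAG00000045065 and EPlOSAG00000008529 in size. Each was above poly(A)+ RNA in 6 of 7 settings.

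The poly(A)- columns, which took no part in the choice, give a further description of the 35 genes. Their median poly(A)- level was 89.7 FPKM, and 31 of the 35 (88.6%) had a poly(A)- mean of at least 1 FPKM, against 22.9% of all tested genes. The poly(A)- mean was above the nuclear mean in 24 of the 35 and in 2065 of the 2786 tested genes, so this by itself did not set them apart. In small RNA 22 of the 35 (62.9%) had a mean of at least 1 FPKM, against 3.16% of all tested genes. The 22 include the 6 loci of 1811 nt, EPlOSAG00000046976, EPlOSAG00000046987 and EPlOSAG00000047009, whose reads may be shared between copies. All 35 reached 1 FPKM in at least 3 nuclear columns, as only 322 of the 2786 tested genes did. These shares thus set genes detected in nuclear RNA against mostly low ones. A comparison with genes of like nuclear level was not made.

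At the other end, the genes called lower were led by abundant poly(A)+ transcripts with very low levels in the nuclear libraries. EPlOSAG00000017141, of 228 nt on the plus strand of chromosome 2 from 19472444 to 19472672, had a poly(A)+ level of 79.7 FPKM in roots at its lowest, 178 at the median and 750 in drought at its highest. Its nuclear level was 0 in untreated seedlings, where 3 reads would give 0.535 FPKM at 24.6 M and less at 49.2 M, 0.98 at the median and 1.81 at its highest. The ranges were far apart, and the difference was -6.96 ± 0.47 (SE, log2 scale, adjusted p = 3.34e-12).

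XLOC_020883 on chromosome 11, from 26510881 to 26511349, followed. Its poly(A)+ level ranged from 139 to 349 FPKM with a median of 240, and its nuclear level from 1.32 to 3.28 FPKM with a median of 2.39 (difference -6.17 ± 0.39). The remaining 8 of the 10 largest differences of equal sign in all settings lay between -5.82 and -5.34. They included XLOC_001897 on chromosome 1 (poly(A)+ median 203, nuclear median 2.58 FPKM), XLOC_069307 on chromosome 6 (55.5 and 0.351 FPKM) and OS10G0518150 on chromosome 10 (87.1 and 0.772 FPKM). XLOC_015714 on chromosome 10 was the only one of the 10 with 2 exons (80.1 and 0.651 FPKM).

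By mean poly(A)+ FPKM, the most abundant genes called lower were XLOC_067313 (1226), described with drought further on, XLOC_084853 (424) and XLOC_084854 (360), ahead of EPlOSAG00000017141 (307). All but the last were low in poly(A)+ RNA of roots. XLOC_084853 and XLOC_084854, neighbours on the plus strand of chromosome 8, reached 1249 and 1277 FPKM in drought but had 1.37 and 1.02 in roots. Their nuclear values reached 7.46 and 15.9 FPKM, both in heat, and their differences were -6.15 ± 0.66 and -5.37 ± 0.61. The 3 spliced RAP genes with the largest differences had smaller ranges. OS01G0658450, of 4 exons, had medians of 87.3 FPKM in poly(A)+ and 0.968 in nuclear RNA (-5.28 ± 0.39), OS07G0574850 had 79.8 and 0.738 (-5.10 ± 0.39), and OS03G0234350 had 72.8 and 0.860 (-5.08 ± 0.38). Short EPlOSAG loci on this side were EPlOSAG00000015299 (12.4 and 0.443 FPKM) and EPlOSAG00000012250 (10.6 and 0.135 FPKM).

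Since the whole distribution was shifted, the fit was repeated after each column's median over the tested genes had been subtracted. Relative to the library median, 286 genes were higher (10.3%) and 534 lower (19.2%). With quantile normalization in its place they were 224 and 213. All 35 genes of the first fit were among the 286, and the 534 were all among the 2206. Centring adds the same amount to the difference of every gene and keeps their order. The nesting was thus largely fixed in advance and is no separate support. The other 251 relatively higher genes had not been called in the first fit.

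Most of the relatively higher calls came from genes with little room to fall. A poly(A)+ level of 2.22 FPKM is the one from which a gene at 0 in nuclear RNA falls by exactly the median difference, and 250 of the 286 genes (87.4%) had a mean log2 level below it, against 39.6% of all tested genes. By mean poly(A)+ level, 148 of 193 genes under 1 FPKM were called relatively higher and 0 lower. In the class of 10 to 50 FPKM 13 of 553 were higher and 420 lower, and at 50 FPKM or more 14 of 94 were higher and 73 lower. The poly(A)+ level enters the difference itself, so this order is a description.

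Among genes of equal sign in all 7 settings, XLOC_051819 stood 6.43 ± 0.50 above the median (adjusted p = 8.14e-06), XLOC_014981 4.71, XLOC_048089 4.33, XLOC_043227 4.08 and XLOC_001043 4.03. EPlOSAG00000017141 stood 5.19 below it (-5.19 ± 0.57, adjusted p = 3.21e-05), and XLOC_020883, XLOC_001897, XLOC_069307 and XLOC_064915 followed at -4.40, -4.05, -3.87 and -3.83.

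The size of the gap differed between settings, and so did the poly(A)+ level. The median level of the 2786 tested genes was 0.138 to 0.205 FPKM in all nuclear columns. In poly(A)+ columns it was 3.54 to 4.42 FPKM in untreated, cold, heat, high light and root samples, but 1.51 in drought and 1.25 in high salt. Accordingly the median log2 difference lay between -2.08 and -1.83 in the first 5 settings, was -0.98 in drought and -0.82 in high salt. On the log2(FPKM + 1) scale the nuclear medians spanned 0.186 to 0.270 and the poly(A)+ medians 1.17 to 2.44. Nuclear changes as small as these hardly move a difference on that scale, which favours a gap that follows poly(A)+ RNA. Why the gap was smaller in drought and high salt was not tested. With 1 column of each kind per setting, these values have no replicate check.

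By size alone, taking genes that differed at least 2-fold and had 1 FPKM in either column, high salt had 1.11% of tested genes higher and 43% lower, and drought 1.54% and 49.5%. No test was made here. Untreated seedlings had 2.33% and 83.8%, cold 1.29% and 80.4%, heat 1.69% and 85.9%, high light 1.22% and 78.8%, and roots 1.29% and 79.9%. Drought and high salt thus had the fewest genes lower in nuclear RNA. With both left out, a choice made after seeing the data, 42 genes were called higher and 2443 lower, and all 35 of the first count were among the 42.

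**Figure D4:**
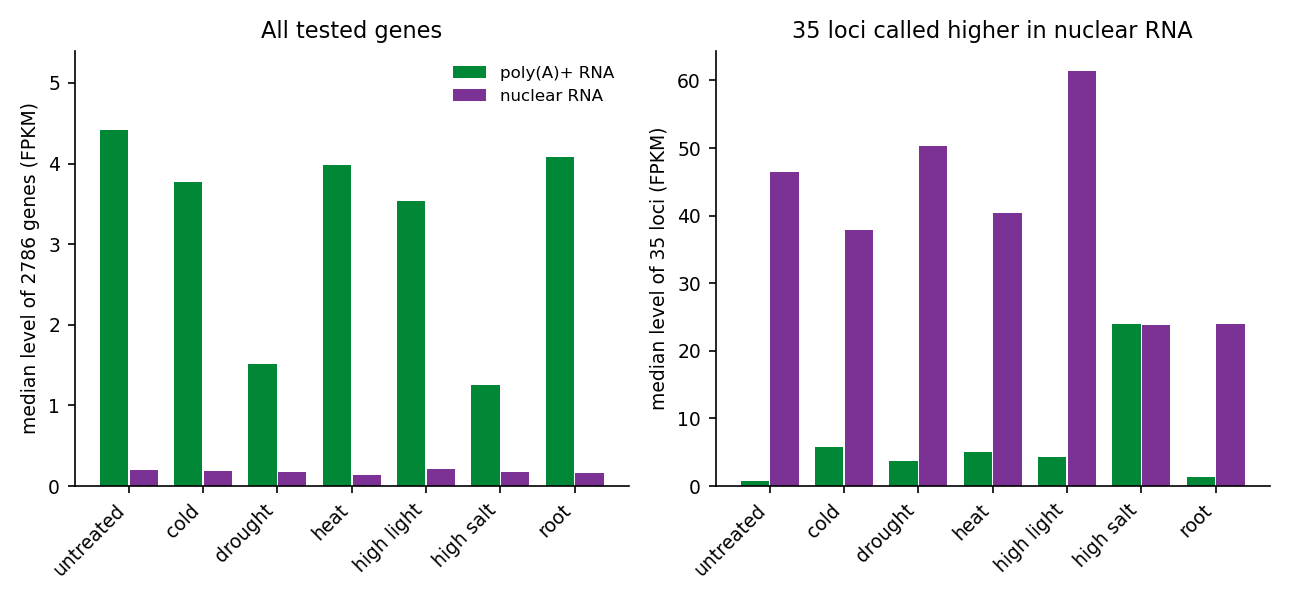
Median level in FPKM of all 2786 tested genes (left) and of the 35 loci called higher (right) in poly(A)+ (green) and nuclear RNA (purple), with 1 library per bar and no error. On the left the poly(A)+ bars of drought and high salt are the lowest, and on the right the poly(A)+ bar of high salt is the highest and about level with its nuclear bar.

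The 35 loci called higher in nuclear RNA showed the opposite order in poly(A)+ RNA of high salt. Their median poly(A)+ level was 24 FPKM there and 0.677 to 5.80 in the other settings, and 24 of the 35 had their highest poly(A)+ value in high salt. Their median nuclear level in high salt was 23.9 FPKM, against 24 to 61.3 elsewhere. Beside this, the 10 leading genes took 58.3% of the listed poly(A)+ reads in high salt, and the 6 loci of 1811 nt alone 45%. The part of either in the smaller gap of high salt was not tested. Roots had the lowest nuclear value for 22 of the 35 loci and the lowest poly(A)+ value for 21.

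Whether single genes had a setting with a different gap was tested on the 7 centred differences, each setting against the other 6. Such a setting is a lone pair, which the test assumes to vary like the others. In drought 17 genes were called, all with a lower nuclear to poly(A)+ difference (0.61% of those tested). In roots 15 genes had a higher difference (0.538%) and 2 a lower one (0.0718%). None was called in the remaining 5 settings, where limma had 95 genes in untreated, 57 in cold, 170 in heat, 12 in high light and 69 in high salt with an unadjusted p under 0.05 and 2-fold.

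These calls followed poly(A)+ RNA, which the log2(FPKM + 1) scale favours for genes of low nuclear level. The highest nuclear value of a called gene had a median of 0.414 FPKM for the drought calls and 1.11 for the root calls. All 17 drought genes had their highest poly(A)+ level in drought and no nuclear value above 2.51 FPKM in any setting. XLOC_067313, of 401 nt on the minus strand of chromosome 5 from 26927841 to 26928242, had 8474 FPKM in drought poly(A)+ RNA (exact 95% Poisson interval 8437 to 8511) and 0.474 to 49.1 in the other settings. In nuclear RNA it had 2.51 FPKM in drought (1.86 to 3.31), from 50 reads, and at most 1.55 elsewhere. Its drought difference was lower by 8.85 on the log2 scale (-8.85 ± 1.40, adjusted p = 0.0273). XLOC_048000 on chromosome 3 had 478 FPKM in drought poly(A)+ RNA and at most 7.36 elsewhere (-7.82 ± 1.10), and its nuclear level was at most 0.225. All 17 had 1 exon, and 13 were XLOC and 4 RAP loci.

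Both sets of calls depended on the fit, and every gene still tested kept its sign. With a pseudocount of 5, all 17 drought genes were called again but 3 of the 17 root genes (adjusted p up to 0.165). Without centring, 5 of the 17 drought and 8 of the 17 root genes were called. Under the limit of 5 FPKM on the mean, 0 of the 7 drought genes still tested were called (adjusted p of 0.0577 to 0.0990), and 11 of 12 root genes were. With 1 FPKM required in 7 columns these were 6 of 7 and 11 of 11.

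**Figure D5:**
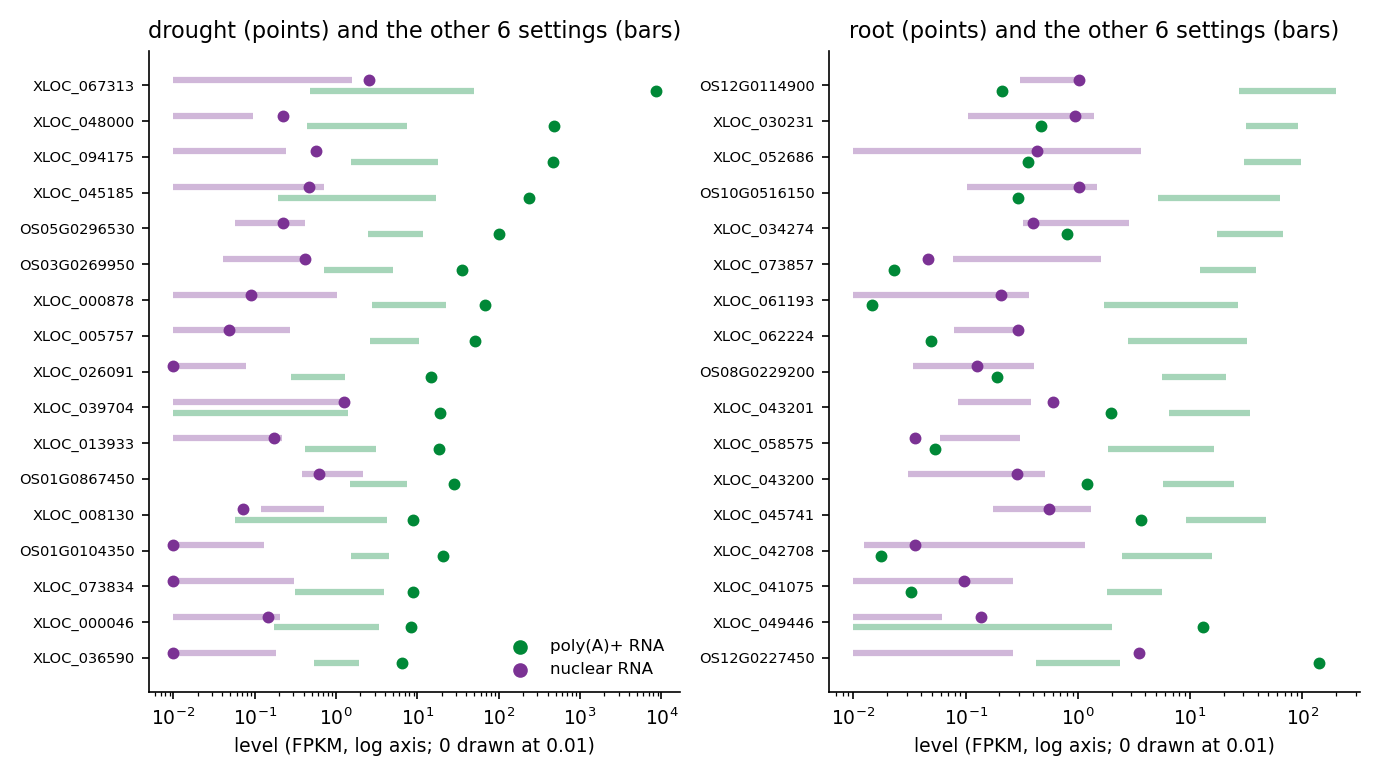
Levels in FPKM on a log axis of the 17 genes called in drought (left) and the 17 called in roots (right), in poly(A)+ (green) and nuclear RNA (purple). Points are the named setting, 1 library each, and bars span the other 6 settings. Drought poly(A)+ points lie above their bars, 15 root poly(A)+ points lie below theirs, and nuclear levels reach at most 3.66 FPKM.

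In roots, the 15 genes with a higher difference all had their lowest poly(A)+ level there. OS12G0114900, of 2 exons on the minus strand of chromosome 12 from 732977 to 733800, had 0.212 FPKM in root poly(A)+ RNA (0.121 to 0.344, from 16 reads) and 27.3 to 199 in the other settings. Its nuclear level was 1.03 FPKM in roots and 0.308 to 1.11 elsewhere, so the nuclear values overlapped and the poly(A)+ values did not (6.72 ± 1.10, adjusted p = 0.0397). XLOC_030231, also on chromosome 12, had 0.470 FPKM in root poly(A)+ RNA and 31.4 to 91.5 elsewhere (6.24 ± 0.76, adjusted p = 0.0208). XLOC_043200 and XLOC_043201, neighbours on chromosome 3, were both among the 15.

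The 2 genes with a lower difference in roots were high in root poly(A)+ RNA. OS12G0227450, of 3 exons on chromosome 12, had 143 FPKM in root poly(A)+ RNA and 0.424 to 2.37 elsewhere, and 3.48 FPKM in root nuclear RNA against at most 0.265 elsewhere (-3.41 ± 0.50, adjusted p = 0.0397). XLOC_049446 on chromosome 3 had 13.1 FPKM in root poly(A)+ RNA and at most 2.01 elsewhere, with nuclear values up to 0.138 (-2.47 ± 0.45, adjusted p = 0.0476).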

How the data were processed

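Libraries were strand-specific, and ribosomal RNA was depleted, per the labels' protocols. The authors deposited FPKM per gene in a table of annotated and a table of XLOC lncRNAs. TopHat2 and the build IRGSP-1.0 are named in the submitters' processing notes, with no role. No source used here states the counter or the treatment of reads with several matches. Coordinates are as deposited, and 0 of 7231 identifiers matched the RefSeq table of assembly ASM3414082v1.

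Multiplied by exon length, the FPKM of each column fell on multiples of 1 step, within 0.05 reads for 100% of 37416 values of up to 200 reads, and the step was equal in both tables (largest relative difference 3.07e-07). The step gave the depth and the reads behind exact 95% Poisson intervals and 3-read limits, which cover counting error only. No count model was run. Columns of leaves and panicles were left out, and 16 columns of values were not used.

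Tests were made with limma 3.58.1 in R 4.3.3 on log2(FPKM + 1), with a trended prior, the setting as a block and Benjamini-Hochberg adjustment over all genes of both tables. The filter was 1 FPKM in 3 of 14 columns. The prior had 23.4 degrees of freedom beside 6 residual ones, and 5.16 in the centred fit, so small p-values rest partly on spread shared between genes. On simulated data 89% and 98% of nuclear against poly(A)+ changes of 1.5 and 2.5 (log2) were called, with 3 false calls in 2586 unchanged genes. For 1 setting against the other 6, 68% and 94% of changes of 3 and 5 were called, with 9 false calls in 2586. Library measures were tested with exact sign-flip permutations (Python 3.11.15, numpy 2.4.6).

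Named genes were all those called higher in all 7 settings, the largest differences in each fit and direction, the most abundant called genes, and the leading RAP and EPlOSAG genes. Other genes called higher were named after their values were seen. Members, lists and alternatives were chosen with earlier results of these data known. No sequences are printed, since no genome of this build was used here.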

Additional observations from a re-analysis of the deposited data

Results flagged for a closer look

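In groups of 7 libraries, 4 of 42 groups examined had an end value set apart from the rest by Dixon's criterion. Chance flags about 1 in 20 such groups. The untreated nuclear column was read as 24.6 M reads (M, reads in units of 1e6), and the next had 49.7 M. At 49.2 M, the depth if all its counts were even, it would not be set apart. The log2 difference of EPlOSAG00000045065 was -1.58 in high salt, with 3.48 as the nearest other value. That of OS07G0574850 was -3.00 in high salt, with -5.06 as the nearest, and that of XLOC_067313 was -11.2 in drought, with -4.53 as the nearest.

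The nuclear to poly(A)+ difference itself differed from the other 6 settings, by a test of that difference, for 17 genes in drought and 17 genes in roots. Each of these settings was 1 pair of libraries.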

How the results depend on the processing

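Every library measure kept its direction without any 1 setting, with mean differences of -1.34 to -1.10 percentage points for the share of reads on listed genes, -2257 to -2038 for genes detected, 55.8 to 63.1 points for the 10 leading genes, -12.5 to -8.20 points for genes of 2 or more exons and -12.1 to -3.39 points for XLOC loci. With 6 pairs the first 3 had an adjusted p of 0.0521, except without high salt, where all 5 passed the threshold (0.0313); the smallest exact p of 6 pairs is 0.0313. The exon share was -44.5 points in the annotated table alone (adjusted exact p = 0.0208) and reversed to 12.6 points in the XLOC table alone (adjusted exact p = 0.0313). The XLOC table holds XLOC_015085, which took 12.4% of all listed nuclear reads on average.

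Genes called higher numbered 24 to 40 and lower 2095 to 2329 when 1 setting was left out, the 24 being without the untreated setting. Higher calls were 57 with a pseudocount of 0.1, 22 with 5, 10 at 4-fold and 23 at a mean of 5 FPKM. Lower calls were 904 with a pseudocount of 5, 1159 with 1 FPKM in 7 columns, 1096 at 4-fold and 633 at a mean of 5 FPKM. Relative to the library median, higher calls were 248 to 333 and lower calls 465 to 528 without 1 setting. Higher calls were 518 with a pseudocount of 0.1, 44 with 5, 110 without a filter, 80 at 4-fold and 80 at a mean of 5 FPKM. Lower calls were 192 with 1 FPKM in 7 columns, 1425 without a filter, 213 with quantile normalization, 197 at 4-fold and 65 at a mean of 5 FPKM. The split of relative calls was 191 to 192 with 1 FPKM in 7 columns, 110 to 1425 without a filter and 518 to 508 with a pseudocount of 0.1. The stricter filters test fewer genes, and the cause of the other shifts was not tested.

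Condition calls in drought were 7 with 1 FPKM in 7 columns, 7 without centring, 40 with a pseudocount of 5 and 0 at a mean of 5 FPKM. In roots they were 30 at a mean of 5 FPKM and 6 with a pseudocount of 5. Heat had 2 without centring and 1 with a pseudocount of 5, and high salt had 1 with 1 FPKM in 7 columns and 1 at a mean of 5 FPKM. The limits of the mean were chosen after seeing the data. No paired analysis by replicate number was possible because the settings carry no shared replicate numbers. The setting was the block, and without it 27 genes were called higher and 2204 lower. At 24.6 M reads in the untreated nuclear column, the lower of 2 readings of its depth, 3 reads equal 0.535 FPKM in a locus of 228 nt, so lower nuclear levels of such short loci are not resolved there.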
